A study of Mus musculus with 8 samples.

Results

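The D-type cyclins Ccnd1, Ccnd2 and Ccnd3, their kinases Cdk4 and Cdk6, the inhibitors Cdkn1b, Cdkn2a, Cdkn2c and Cdkn2d, and Rb1 were followed in embryonic mouse kidneys that lacked Grb2 in the ureteric bud. The genes were chosen by name for their place in the G1 phase of the cell cycle, with earlier results of these data known. All 10 were measured, among 22180 genes on the array. Kidneys at E14.5 (E for embryonic day) came from 8 embryos of 1 litter, 4 labelled Grb2 UB-cKO (a conditional knockout in the ureteric bud, written Grb2_cKO here) and 4 labelled wild-type control. Both kidneys of an embryo were pooled and their total RNA was hybridised to 1 array, so each value stands for 1 animal. The Cre line that drives the deletion, and whether the controls carry a floxed allele or Cre, are not given in the sources. GRB2 is the adaptor that couples receptor tyrosine kinases such as RET to RAS and ERK signalling.

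D cyclins link growth factor signals to the cell cycle. Mitogens raise their levels through the ERK pathway, and a D cyclin bound to CDK4 or CDK6 phosphorylates the retinoblastoma protein RB1, which then releases E2F transcription factors that switch on genes of S phase. INK4 inhibitors, among them the products of Cdkn2a, Cdkn2c and Cdkn2d, bind CDK4 and CDK6 and keep them from the cyclin, whereas p27, the product of Cdkn1b, acts mainly on CDK2 complexes. In the developing kidney the tips of the ureteric bud and the nephron progenitors around them divide rapidly.

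Ccnd1 and Cdk4 fell and Cdkn2c rose in Grb2_cKO kidneys, and the other 7 genes did not pass the test. Passing means an adjusted p under 0.05 in limma, a linear model fitted to all genes. Lower were 2 of the 10 genes, where 14.3% of all genes were called lower, and higher was 1, where 13.7% of all genes were called higher. A call in either direction was made for 28.1% of all genes, so the 3 of 10 genes called here are close to the share over the whole array. The median log2 fold change of the 10 genes was 0.03, beside 0.0058 for all genes. For the same 3 genes the 4 values of one group were all above the 4 of the other, as they were for 31.2% of all genes.

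**Figure D1:**
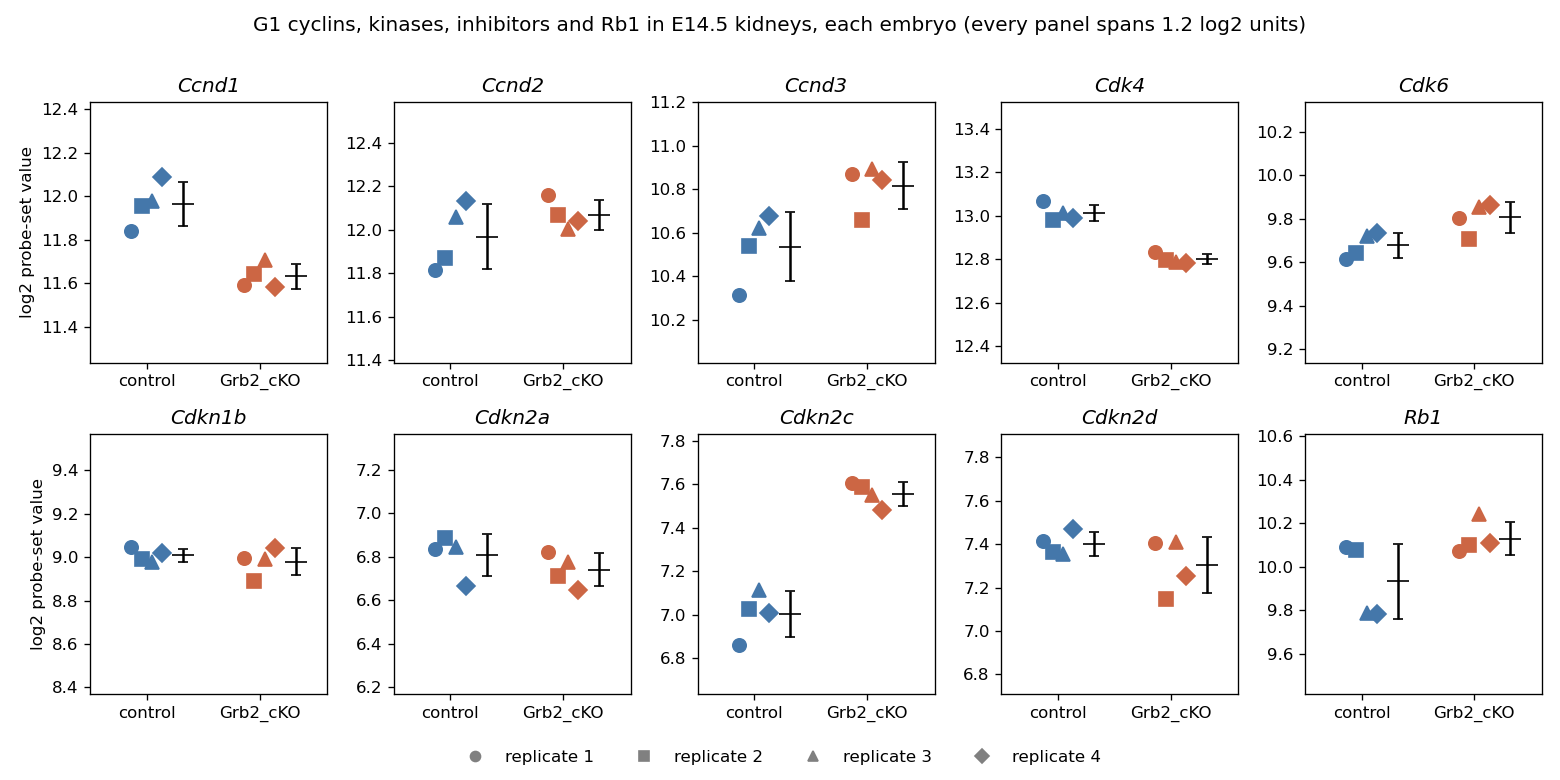
Each panel plots 1 gene, with the log2 probe-set value of each embryo for 4 controls (blue) and 4 Grb2_cKO kidneys (orange), and the mean with its SD in black. Symbols mark the replicate and pair nothing between groups. The groups are apart for Ccnd1, Cdk4 and Cdkn2c and overlap for the other 7 genes.

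Grb2 itself, measured by 1 probe set, was 8.68, 8.65, 8.61 and 8.66 in the controls and 8.36, 8.17, 8.22 and 8.06 in the Grb2_cKO kidneys, in units of log2. All 4 Grb2_cKO values lay below all control values, and the log2 fold change was -0.45 (SE 0.07, adjusted p = 0.0017 in limma). Cells outside the ureteric bud keep the gene by design and contribute to the RNA.

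Sex-linked genes and markers of cell types differed between the groups as well, and their values belong beside every result that follows. The mean of 3 Y-linked genes was 9.94 to 10.10 in the Grb2_cKO embryos and 9.94 in control replicate 3, but 4.09 to 4.24 in the other controls. Marker lists of the ureteric tip (8 of 9 measured genes lower, list mean 8.93 to 9.20 in controls and 7.30 to 7.72 in Grb2_cKO), of nephron progenitors (8 of 10 lower, 10.19 to 10.38 and 9.02 to 9.52), of the ureteric epithelium (7 of 9 lower, 9.37 to 9.49 and 8.42 to 8.68) and of early nephrons (8 of 8 lower, 9.31 to 9.49 and 8.61 to 8.73) were down. Lists of stroma (9 of 10 higher, 10.40 to 10.54 and 10.95 to 11.16), podocytes (6 of 6, 8.65 to 8.83 and 9.21 to 9.84), macrophages (7 of 10, 7.29 to 7.49 and 8.16 to 8.54), erythroid cells (5 of 7, 6.35 to 6.89 and 7.24 to 7.86) and endothelium (7 of 10, 9.77 to 9.85 and 10.08 to 10.34) were up. Their part in the results on the G1 genes was not tested beyond the covariate fits below, and in RNA of whole kidneys fewer cells of a type and less RNA per cell cannot be told apart.

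Ccnd1, which encodes cyclin D1, was 11.84, 11.96, 11.98 and 12.09 in controls and 11.59, 11.64, 11.71 and 11.58 in Grb2_cKO kidneys (log2 levels). The lowest control lay 0.13 above the highest Grb2_cKO value, so the groups did not overlap. The mean was 11.97 ± 0.10 in controls and 11.63 ± 0.06 in Grb2_cKO (SD, n = 4 each). Ccnd1 thus fell 1.26-fold, to 79.4% of the control level (95% interval 70.9% to 88.8%), with a log2 fold change of -0.33 (SE 0.07, adjusted p = 0.00684 in limma).

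Ccnd2, which encodes cyclin D2, did not pass. Its log2 values were 11.82, 11.87, 12.06 and 12.13 in controls and 12.16, 12.07, 12.00 and 12.04 in Grb2_cKO, and all but 1 of the latter lay within the range of the controls. The log2 fold change was 0.10 (95% interval -0.09 to 0.29, adjusted p = 0.454 in limma), an interval that still holds changes of either sign.

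Ccnd3, which encodes cyclin D3, stood just outside the threshold. It was 10.31, 10.54, 10.62 and 10.68 in controls and 10.87, 10.66, 10.89 and 10.84 in Grb2_cKO. Control replicate 1 was the lowest and Grb2_cKO replicate 2 fell just below the highest control, so the groups overlapped by 0.02. In limma Ccnd3 stood at a log2 fold change of 0.28, with a 95% interval of 0.07 to 0.49 (SE 0.09, adjusted p = 0.0511). Ccnd3 passed after quantile normalization (0.29, adjusted p = 0.0404), but with the Y-linked covariate described below it stood at 0.19 (adjusted p = 0.556) and with the erythroid covariate at 0.0081 (adjusted p = 0.993).

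Ccnd1 changed differently from Ccnd2 and from Ccnd3 in the comparison without covariates. The difference between the log2 values of a pair of genes within each embryo was compared between the groups with a two-sided exact permutation test, whose smallest possible p with 4 against 4 embryos is 0.0286. P-values were adjusted over the 4 pairs compared. The log2 difference of Ccnd1 minus Ccnd2 ran from -0.08 to 0.09 in controls and from -0.57 to -0.29 in Grb2_cKO, a shift of -0.43 (exact p = 0.0286, adjusted p = 0.0381). The difference of Ccnd1 minus Ccnd3 ran from 1.36 to 1.53 in controls and from 0.72 to 0.99 in Grb2_cKO, a shift of -0.61 (exact p = 0.0286, adjusted p = 0.0381). In both pairs all 4 Grb2_cKO embryos lay below all 4 controls. The difference of Ccnd2 minus Ccnd3 shifted by -0.18 (exact p = 0.0571, adjusted p = 0.0571) and its groups overlapped. In the fit with the erythroid covariate described below, the shift of Ccnd1 minus Ccnd2 was -0.14 and that of Ccnd1 minus Ccnd3 was -0.42, and with the Y-linked covariate they were -0.36 and -0.54, values without a test that were chosen after seeing the data. A difference between probe sets within an array shows unequal change of the log2 values, and says nothing about which gene has more transcript. Whether these probe sets respond alike to a change in transcript was not tested.

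**Figure D2:**
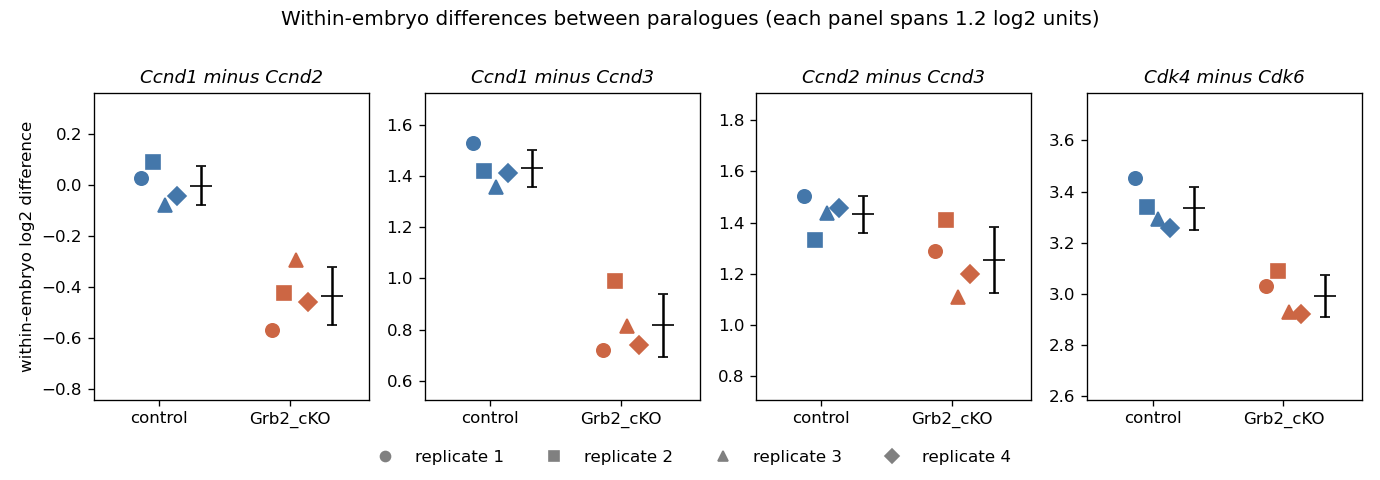
Within-embryo differences of log2 values are plotted for the 4 pairs of paralogues, by group, with the mean and SD in black. Grb2_cKO embryos lie below the controls for Ccnd1 minus Ccnd2, Ccnd1 minus Ccnd3 and Cdk4 minus Cdk6, and overlap with them for Ccnd2 minus Ccnd3.

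Among the kinases, Cdk4 fell. It was 13.07, 12.98, 13.01 and 12.99 in controls and 12.83, 12.80, 12.79 and 12.78 in Grb2_cKO (log2 levels), with a gap of 0.15 between the groups. These embryos agreed closely: the SD within a group was 0.031 for Cdk4, beside a median of 0.136 over all genes. The log2 fold change was -0.21 (SE 0.06, adjusted p = 0.0218 in limma), which leaves 86.3% of the control level (95% interval 78.7% to 94.5%). The call was lost without control replicate 1 (adjusted p = 0.0511), control replicate 3 (0.0526) or Grb2_cKO replicate 3 (0.0595), at log2 fold changes of -0.20, -0.21 and -0.21.

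Cdk6, the other kinase partner of the D cyclins, did not pass. Its log2 values were 9.61, 9.64, 9.72 and 9.73 in controls and 9.80, 9.71, 9.86 and 9.86 in Grb2_cKO, where replicate 2 overlapped with the controls. The log2 fold change was 0.13 (95% interval -0.02 to 0.28, adjusted p = 0.192 in limma). Cdk4 minus Cdk6 within an embryo ran from 3.26 to 3.45 in controls and from 2.92 to 3.09 in Grb2_cKO, a shift of -0.34 with no overlap (exact p = 0.0286, adjusted p = 0.0381 over the 4 pairs).

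The stretch upstream of Cdk4 is shown because this gene fell and because the letters CACGTG, the E-box bound by MYC and related factors, occur there repeatedly. It covers the 250 bases before the start of the gene in RefSeq, at chr10:127063285-127063534 of GRCm38.p6 on the plus strand, with 4 E-boxes and 1 GC box (GGGGCGGG, read here on the other strand) in capitals.
Cdk4: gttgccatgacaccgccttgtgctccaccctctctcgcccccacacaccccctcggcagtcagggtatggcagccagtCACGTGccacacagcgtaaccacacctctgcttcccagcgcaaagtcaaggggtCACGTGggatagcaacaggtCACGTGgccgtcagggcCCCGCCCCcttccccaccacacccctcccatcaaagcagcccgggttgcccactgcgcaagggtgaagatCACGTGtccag
Of 27025 genes with a sequence in the promoter table, 5 (0.0185%) held 4 or more E-boxes in these 250 bases. In the table's windows of 300 bases (250 before and 50 after the start, both strands), CACGTG was found in 8.09% of all genes and in Cdk4, Cdk6 and Cdkn2c among the 7 of the 10 genes that the table held. A match of letters is a description and no evidence of binding.

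Of the inhibitors, Cdkn2c rose. It encodes p18, an INK4 protein, and was 6.86, 7.03, 7.11 and 7.01 in controls and 7.61, 7.59, 7.55 and 7.48 in Grb2_cKO. The gap of 0.37 between the groups was the widest among the 10 genes. The SD was 0.11 in controls and 0.06 in Grb2_cKO (n = 4 each). The rise was 1.47-fold (95% interval 131% to 164% of the control level), with a log2 fold change of 0.55 (SE 0.07, adjusted p = 0.000528 in limma), and 9.47% of all genes had a larger change in size. Leaving out any 1 embryo kept the log2 fold change between 0.51 and 0.59, with adjusted p-values of 0.00121 to 0.00245. The control values of Cdkn2c lay just above the array medians of 6.61 to 6.72. Whether they exceeded background is not given in the sources.

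Cdkn2d, which encodes the INK4 protein p19, did not pass. It was 7.42, 7.36, 7.35 and 7.47 in controls and 7.41, 7.15, 7.41 and 7.25 in Grb2_cKO, with replicates 1 and 3 of the latter among the controls. Its log2 fold change was -0.10 (95% interval -0.27 to 0.08, adjusted p = 0.419 in limma).

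Cdkn2a, whose locus gives rise to both p16 and the p53 activator ARF, did not pass. It was 6.84, 6.89, 6.85 and 6.67 in controls and 6.82, 6.71, 6.78 and 6.65 in Grb2_cKO, with control replicate 4 as low as the Grb2_cKO kidneys. The log2 fold change was -0.07 (95% interval -0.23 to 0.10, adjusted p = 0.566 in limma). Which of the 2 products its probe set reads, and whether it was above background, are not given in the sources.

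Cdkn1b, which encodes p27, differed least of the 10 genes. Its log2 values were 9.04, 8.99, 8.98 and 9.02 in controls and 8.99, 8.89, 8.99 and 9.04 in Grb2_cKO, and all but replicate 2 of the latter lay within the controls' range. The log2 fold change was -0.03 (95% interval -0.17 to 0.11, adjusted p = 0.786 in limma), which bounds the Grb2_cKO level to 89% to 108% of control.

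Rb1, which encodes the substrate of the cyclin D kinases, had 2 probe sets that differed in size of change. The one with the higher mean, which stands for the gene, was 10.09, 10.07, 9.78 and 9.78 in controls and 10.07, 10.10, 10.24 and 10.11 in Grb2_cKO. Control replicates 3 and 4 were low and replicates 1 and 2 lay level with the Grb2_cKO kidneys, and the log2 fold change of 0.20 did not pass (95% interval -0.01 to 0.40, adjusted p = 0.152 in limma). The other probe set was 6.02, 6.08, 5.96 and 5.54 in controls and 6.40, 6.52, 6.46 and 6.84 in Grb2_cKO, with no overlap. Its log2 fold change was 0.66 (SE 0.14, adjusted p = 0.0141 in limma over all 41345 probe sets), where the first had an adjusted p of 0.222 by the same count. With the mean of both probe sets Rb1 passed, at 0.43 (adjusted p = 0.011). The first probe set stood at 0.35 with the Y-linked covariate (adjusted p = 0.199) and at 0.58 with the erythroid covariate (adjusted p = 0.157), larger than in the fit without covariates and not past the threshold. In the controls the other probe set lay below the array medians of 6.61 to 6.72. The sources do not give whether it was above background, or which parts of the transcript these probe sets read.

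None of the 3 calls held when a covariate for sex or for red cells was added. When the Y-linked mean was added to the model, Ccnd1 stood at -0.35 (SE 0.12, adjusted p = 0.144), Cdk4 at -0.21 (SE 0.10, adjusted p = 0.278) and Cdkn2c at 0.44 (SE 0.12, adjusted p = 0.0605) in limma. The median SE of the 10 genes went from 0.074 to 0.125. No gene of the 10 passed, and at an unadjusted p under 0.05 there were 1 lower and 2 higher. That fit turns on control replicate 3, since its Y-linked mean was at the level of the Grb2_cKO embryos. This embryo had a log2 level of 11.98 for Ccnd1 and 13.01 for Cdk4, both between the other controls, and 7.11 for Cdkn2c, the highest of the controls and below every Grb2_cKO kidney. With the mean of the erythroid list as a covariate, Ccnd1 stood at -0.41 (adjusted p = 0.272), Cdk4 at -0.20 (adjusted p = 0.537) and Cdkn2c at 0.39 (adjusted p = 0.284), and again none of the 10 genes passed, with 1 lower and 1 higher at an unadjusted p under 0.05. The erythroid mean was higher in every Grb2_cKO embryo than in any control, so this covariate and the genotype are hard to separate.

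Around the 10 genes, partners of the step from G1 to S phase fell more often than they rose. The list of 26 holds E-type cyclins, CDK2, other inhibitors, the RB1 relatives, the E2F factors and their DP partners. It also holds Cdc25a, Skp2, Cks1b, Fbxw7, Cdk7, Ccnh, Mnat1 and Ambra1. Genes that promote the step and genes that restrain it are thus counted together. Of the 25 measured genes, with Ccne1 the only E-type cyclin, 13 fell, 2 rose and 10 did not pass in limma. Their median log2 fold change was -0.23, and Cdc25a, Fbxw7 and Cdk7 were among those that fell. Over all genes 14.3% were called lower and 13.7% higher, with a median of 0.0058. With the Y-linked covariate 1 of the 25, E2f3, was called, and with the erythroid covariate 1, Ccne1. Without Grb2_cKO replicate 3 the count of lower genes went from 13 to 7.

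**Figure D3:**
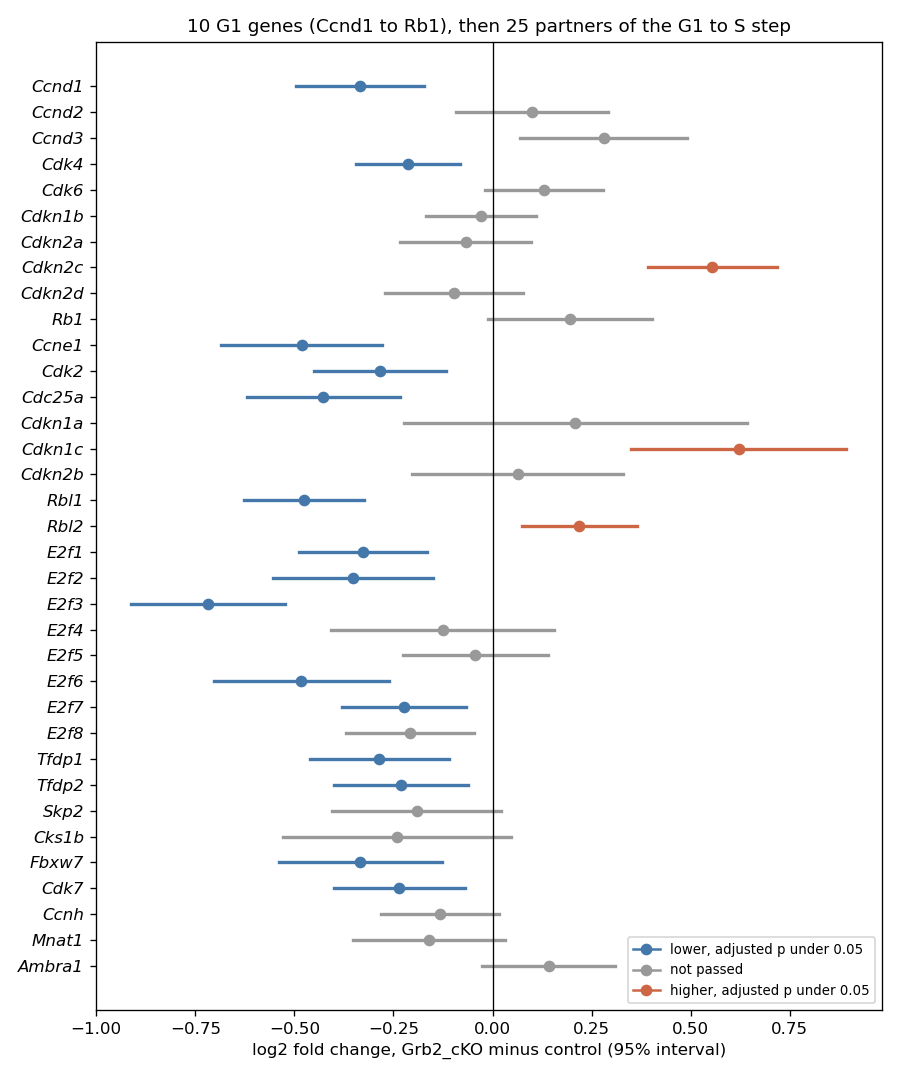
Log2 fold changes (Grb2_cKO minus control) with their 95% intervals are drawn for the 10 G1 genes, from Ccnd1 to Rb1, and for 25 partner genes below them. Blue marks genes called lower, orange genes called higher and grey genes that did not pass. Of the partners, 13 are blue and 2 are orange.

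Ccne1, which encodes cyclin E1, the partner of CDK2 late in G1, was 9.65, 9.82, 9.73 and 9.86 in controls and 9.49, 9.32, 9.13 and 9.19 in Grb2_cKO. All Grb2_cKO values were below all controls, and the log2 fold change was -0.48 (SE 0.09, adjusted p = 0.00336). Cdk2 itself fell by 0.28 on the log2 scale (adjusted p = 0.0168), and Cdc25a, the phosphatase that activates CDK2, by 0.43 (adjusted p = 0.0048). All of these are limma values with n = 4 per group.

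E2f1, E2f2 and E2f3, the activating E2F factors that RB1 restrains, fell. E2f3 was 10.36, 10.40, 10.31 and 10.39 in controls and 9.74, 9.81, 9.44 and 9.59 in Grb2_cKO, a gap of 0.50 between the groups. It had the largest fall of the partner list, 1.64-fold (log2 fold change -0.72, SE 0.09, adjusted p = 0.000356 in limma). E2f1 fell by 0.33 (adjusted p = 0.00762), E2f2 by 0.35 (adjusted p = 0.0155), and E2f6, a repressor of the family that does not bind RB1, by 0.48 (adjusted p = 0.00505). E2f4 and E2f5, which work mainly with the RB1 relatives, did not pass, at -0.13 (95% interval -0.41 to 0.15) and -0.04 (95% interval -0.23 to 0.14). E2f2, E2f4 and E2f5 were named after their values were seen.

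The RB1 relatives Rbl1 and Rbl2 moved in opposite directions. Neither call was stable, and that of Rbl2 was lost in more settings. Rbl1, which encodes p107, ran from 10.57 to 10.76 in controls and from 10.12 to 10.23 in Grb2_cKO and fell by 0.47 (SE 0.07, adjusted p = 0.000777 in limma). Rbl2, which encodes p130 and was named after its values were seen, ran from 9.20 to 9.28 in controls and from 9.37 to 9.54 in Grb2_cKO and rose by 0.22 (SE 0.06, adjusted p = 0.03). Its call was lost after centring on array medians (0.15, adjusted p = 0.103), with all probe sets adjusted together (adjusted p = 0.0593) and without any 1 of 6 of the 8 embryos, which were control replicates 2, 3 and 4 and Grb2_cKO replicates 1, 3 and 4 (log2 fold changes of 0.19 to 0.25 and adjusted p-values of 0.0252 to 0.0792 over all 8 embryos left out in turn). With the Y-linked covariate Rbl1 stood at -0.42 (adjusted p = 0.0689 in limma) and Rbl2 at 0.25 (adjusted p = 0.227). With the erythroid covariate Rbl1 stood at -0.26 (adjusted p = 0.415) and Rbl2 at 0.31 (adjusted p = 0.359), so neither call held. The groups did not overlap for either gene.

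Of the other inhibitors, Cdkn1c rose. It encodes p57, an inhibitor of CDK2 complexes, and was 10.48, 10.41, 10.53 and 10.47 in controls and 11.08, 10.72, 11.24 and 11.34 in Grb2_cKO. The Grb2_cKO kidneys varied more than the controls, with replicate 2 the lowest, and the rise was 1.54-fold (log2 fold change 0.62, SE 0.12, adjusted p = 0.00404 in limma). The podocyte list, of cells in which Cdkn1c is known to be expressed, was also higher (6 of 6 genes), and its part in this result was not tested. Cdkn1a, which encodes the p53 target p21, varied within both groups, from 9.11 to 9.83 in controls and from 9.30 to 10.09 in Grb2_cKO, and its log2 fold change of 0.21 did not pass (95% interval -0.22 to 0.64, adjusted p = 0.493).

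Genes that E2F factors are known to switch on fell in most cases. Of 22 measured genes of a list of 24, 20 fell, none rose and 2 did not pass in limma. Over all genes 14.3% were called lower and 13.7% higher. The median log2 fold change of the list was -0.66, and at an unadjusted p under 0.05 there were 21 lower and none higher. The list mean of an embryo ranged from 10.42 to 10.53 in controls and from 9.78 to 9.96 in Grb2_cKO kidneys. Mcm7 and Mcm6, which encode subunits of the DNA helicase, fell by 0.82 (SE 0.08) and 0.75 (SE 0.09), and Rrm2, needed to make deoxynucleotides, fell by 0.84 (SE 0.09). Chek1, a checkpoint kinase gene, fell by 0.81 (SE 0.09), Cdc6, a loader of the helicase, by 0.79 (SE 0.09), and Uhrf1, a factor that maintains DNA methylation, by 0.77 (SE 0.09). After adding the Y-linked covariate, 9 of the 22 were called lower (median -0.57), beside 613 of all genes. With the erythroid covariate 3 were called lower (median -0.81), beside 129 of all genes.

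**Figure D4:**
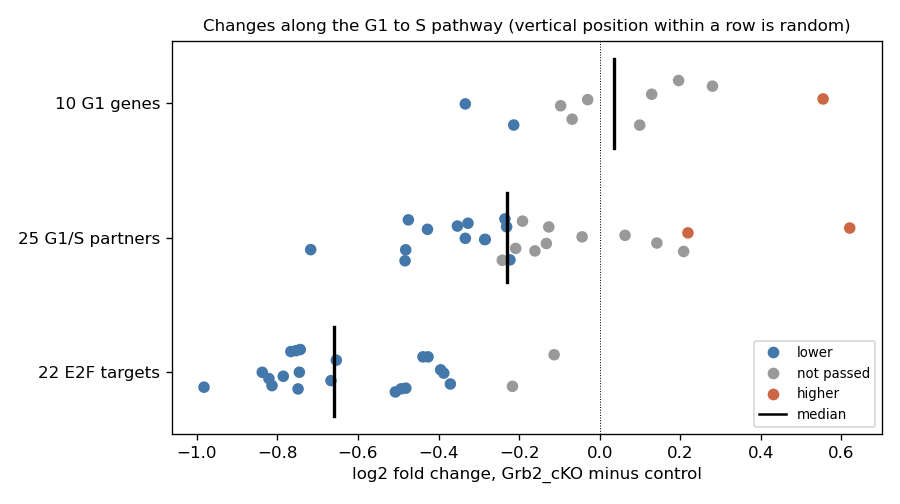
Each point is the log2 fold change (Grb2_cKO minus control) of 1 gene, for the 10 G1 genes, 25 partners and 22 E2F targets, coloured by call, with the median of each list as a black line. The medians stand at 0.03, -0.23 and -0.66.

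E2F binding letters are shown for genes of these lists that fell, beside the one match among the 10 G1 genes. The 4 forms TTTCCCGC, TTTCGCGC, TTTGCCGC and TTTGGCGC were searched on both strands of the 300-base windows, and were found in 2.6% of all 27025 genes, in 7 of 21 partners (33.3%) and in 9 of 19 targets (47.4%) with a sequence. The target list was chosen for known E2F control and the partner list for the same G1 to S step, so neither share is an independent finding. Base composition of the windows was not taken into account. Among the 7 G1 genes with a sequence Cdkn2a alone held a match, at the more distal of its 2 starts, and Ccnd1, Ccnd2 and Rb1 were not in the table. Each line gives 30 bases of GRCm38.p6, 5′ to 3′ on the strand of the gene, with the match in capitals.
Rbl1: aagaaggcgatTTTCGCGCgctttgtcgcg
E2f3: ttgaaaagccgGCGGGAAAtctgagtttcg
Cdc25a: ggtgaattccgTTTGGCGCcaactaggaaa
Cdk2: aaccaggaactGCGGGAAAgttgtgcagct
Mcm6: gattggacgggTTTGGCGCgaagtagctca
Cdc6: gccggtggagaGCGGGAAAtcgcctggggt
Cdkn2a: ctctgggaagcTTTCCCGCgcgactgggga
They lie at chr2:157204534-157204563 (Rbl1, minus strand), chr13:29986056-29986085 (E2f3, minus), chr9:109875501-109875530 (Cdc25a, plus), chr10:128705173-128705202 (Cdk2, minus), chr1:128359734-128359763 (Mcm6, minus), chr11:98908002-98908031 (Cdc6, plus) and chr4:89294700-89294729 (Cdkn2a, minus), and in each the match itself lies before the annotated start. The first 6 of these genes were picked for having fallen, so their falls are no finding about the letters, and Cdkn2a did not pass.

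Other genes followed Ccnd1 and Cdkn2c closely over the 8 kidneys. Likeness was measured as the root-mean-square difference of log2 values after each gene was centred on its own mean, over 10521 named genes with a mean above the median of all genes. Nearest to Ccnd1 was E2f1, at a difference of 0.026, with log2 levels of 9.75, 9.89, 9.90 and 10.03 in controls and 9.52, 9.59, 9.59 and 9.56 in Grb2_cKO. As for Ccnd1, control replicate 1 was the lowest and replicate 4 the highest of the controls. This order was not particular to the pair, since Ccnd2, Ccnd3 and Cdk6 had it too, though the rest of the 10 genes did not. The mean of the erythroid list also had it, from 6.35 in control replicate 1 to 6.89 in control replicate 4. Kpna1, which encodes a nuclear import adaptor, and Kctd5 came next, at 0.040 and 0.041. Nearest to Cdkn2c were Ube2l6, which encodes a conjugating enzyme for the ubiquitin-like ISG15, at 0.051, and Sat2 and Tent5a, each at 0.069. The likeness includes the difference between the groups and describes these 8 arrays.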

How the data were processed

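The values used are the log2 probe-set values that the authors deposited for 41345 probe sets on 8 arrays (200 ng of total RNA each, per the labels' protocols). The Transcriptome Analysis Console is named in the submitters' processing notes. How background was corrected and how arrays were summarized and normalized is not given in the sources, and that the values are log2 was inferred from their range (1.25 to 14.08, array medians 6.61 to 6.72). The number of arrays limits the precision. No detection calls or scan batches were used here.

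Probe sets with 1 gene symbol (23521) were named through the platform annotation and RefSeq GRCm38.p6, and the one with the highest mean over the 8 arrays stood for a gene. Groups were compared in limma 3.58.1 (R 4.3.3), with no covariate and Benjamini-Hochberg adjustment over 22180 genes. The fit was tested on simulated data, where fewer genes were changed than were called here, and it missed most of the changes put in. A gene that did not pass may therefore still differ. A log2 fold change is the Grb2_cKO mean minus the control mean, given with its moderated SE.

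The genes, lists and tests were chosen with earlier results of these data known. Named with values were the 10 genes, Grb2, up to 6 called genes of smallest p in each of the partner and target lists, 5 measured fixed partners (Ccne1, Cdk2, Cdkn1a, Cdkn1c, E2f1) and the 3 genes most like each of Ccnd1 and Cdkn2c. List genes without a single-symbol probe set were not analysed here. Alternatives were other scalings, filters, spread models, covariates, controls, thresholds and leaving out each embryo.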

Additional observations from a re-analysis of the deposited data

How the results depend on the processing

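Across 20 alternative settings, 321 of 392 recomputed values were labelled the same. For values with a test this meant the same direction and side of the threshold, and for counts staying within 1.5 times. For pair shifts without a test it meant the same direction and a move smaller than the SD within groups. A gene that did not pass could keep the label while its value moved, as Ccnd3 did from 0.28 to 0.0081 with the erythroid covariate. Some log2 fold changes could not move, as under another spread model. The count is therefore no measure of how stable the calls are, and those of Ccnd1, Cdk4 and Cdkn2c were lost with either covariate. The groups are different embryos and the labels pair none of them, so no paired analysis was made. Replicate numbers were assigned here within each group, in the order in which the samples are listed. With the Y-linked covariate, Ccnd1 stood at -0.35, Cdk4 at -0.21, Cdkn2c at 0.44 and Cdkn1b, of reversed sign, at 0.0026, and 0 of the 10 genes were lower and 0 higher in limma (1 and 2 at an unadjusted p under 0.05). Partner genes were then 1 lower and 0 higher (9 and 2 unadjusted), E2F targets 9 lower, and all genes 613 lower and 633 higher. With control replicate 3 as the only control, the values were -0.345 (Ccnd1), -0.21 (Cdk4), 0.44 (Cdkn2c) and 0.0008 (Cdkn1b, reversed), with 0 and 0 of the 10 genes (1 and 2 unadjusted), 0 and 0 partners (9 and 1 unadjusted), 1 target lower, and 120 lower and 165 higher of all genes. That fit has 1 embryo in an arm, assumed to vary like the others. With the erythroid covariate, Ccnd1 stood at -0.41, Cdk4 at -0.20 and Cdkn2c at 0.39, while Ccnd2 at -0.27 and Cdkn2a at 0.0065 reversed. The shift of Ccnd1 minus Ccnd2 was then -0.14 and that of Ccnd1 minus Ccnd3 -0.42, values with no test from an alternative chosen after seeing the data. Counts were 0 and 0 of the 10 genes (1 and 1 unadjusted), 1 and 0 partners (12 and 2 unadjusted), 3 targets lower, and 129 lower and 85 higher of all genes. The standard errors rose in these 3 fits, and further causes were not tested.

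Ccnd3 passed after quantile normalization (0.29), without the dimmest genes (0.28), with a trended and robust spread (0.28) and with array weights (0.28), which made 2 of the 10 genes higher in each. Averaging probe sets made Rb1 pass (0.43), again with 2 higher, and a threshold of 0.10 gave 2 higher. At a threshold of 0.01 there were 1 of the 10 genes lower, 6 partners lower and 1 higher, and 2010 lower and 1799 higher of all genes. Partners higher numbered 1 after centring on array medians and with all probe sets adjusted together. Centring on array medians moved the share of higher calls among all called genes from 48.9% to 36.9%, and changed no call among the 10 genes.

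Leaving out 1 embryo at a time gave 1 to 2 of the 10 genes lower and 1 to 2 higher, 7 to 13 partners lower and 1 to 2 higher, log2 fold changes of -0.22 to -0.20 for Cdk4 and 0.20 to 0.33 for Ccnd3. Among genes that did not pass, Ccnd2 ran from 0.049 to 0.15, Cdkn2d from -0.13 to -0.045, Cdkn2a from -0.12 to -0.038 and Cdkn1b from -0.05 to -0.0007. Ccnd3 passed without control replicate 4 (adjusted p = 0.0393) or Grb2_cKO replicate 2 (0.0319). The shift of Ccnd1 minus Ccnd2 was -0.48 to -0.39, of Ccnd1 minus Ccnd3 -0.67 to -0.58, of Ccnd2 minus Ccnd3 -0.23 to -0.13 and of Cdk4 minus Cdk6 -0.38 to -0.30, with no test at 3 against 4, where the smallest exact p is 0.0571.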
